A study of Rattus norvegicus with 28 samples.

Results

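The ileum of breast-fed rat pups was compared between the second and the first day of life. All 3 arrays labelled breast-fed day 2 were set against all 3 labelled breast-fed day 1, 6 of the 28 arrays of a study on necrotizing enterocolitis, an inflammatory bowel disease of the newborn. Each array held total RNA from the terminal ileum of 1 pup, kept in the RNA preservative RNAlater. Pups of both days were left on breast milk and received no hypoxia, so the groups differ in age and in the length of suckling. Neither strain nor litter is given in the sources used here, and p-values measure the spread between single pups. Comparison values came from 4 unfed newborns (day 0), from breast-fed pups of days 3 and 4 (3 each), and from pups fed formula and exposed to hypoxic stress 3 times a day and killed on day 1 or day 2 (3 each). Formula and hypoxia were always combined. All 8740 probe sets that are not controls entered the analysis, and 3185 genes of 4736 with a symbol passed the filter on low signals and were tested. The tissue is whole bowel wall, and in such samples fewer cells of a type and less RNA per cell cannot be told apart.

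The first days of suckling move the newborn bowel from nutrients delivered by the placenta to milk, whose energy comes mainly from fat. Enterocytes, the absorptive cells of the villi, take up fatty acids, carry them on small fatty acid-binding proteins and activate them to acyl-CoA for re-esterification and export in chylomicrons. Fabp1 is the liver form of these carriers and Fabp2 the intestinal form. Fabp5 is the epidermal form, which is found in many tissues and is not the main carrier of enterocytes. The distal ileum of the suckling rat is also specialised for endocytosis of milk proteins and for the recovery of bile acids.

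The arrays carried ileal transcripts. Normalised signals, in arbitrary units after quantile normalisation, were 2610 to 5568 for Fabp2 and 527.1 to 1346 for Fabp6, the ileal bile acid-binding protein, over the 6 arrays. The signal for Slc10a2, the ileal bile acid transporter that appears late in development, was only 27.5 to 45.4, near the filter level of 24, and the villus actin-binding gene Vil1 was not among the genes tested. Day 1 arrays had median deposited signals of 28.7 to 38.5 and day 2 arrays of 38.1 to 46.0, ranges that overlap. The lowest median, 28.7 in day 1 replicate 2, came with a lower deposited trimmed mean (109.2, against 150.2 to 150.3 in the other 5). By itself it therefore shows no difference in the shape of the signal distribution. The other day 1 medians were 38.5 and 32.7. Day 1 replicate 2 was also registered in a second run of accessions, the only one of the 6 arrays to be so. Correlations of log2 signals were 0.928 to 0.955 within day 1, 0.947 to 0.956 within day 2 and 0.926 to 0.967 between days, so arrays of different days were as alike as arrays of 1 day. None of the 6 arrays had lost abundant probe sets (0 in each). Among the later arrays, day 3 replicate 3 was low for 69 of 754 probe sets that are abundant on the other arrays and day 4 replicate 2 for 48 of 757, with median correlations of 0.807 and 0.822 to other arrays. Both, called depleted here, enter the comparisons with days 3 and 4 and the pooled spread, so those results are given with and without them. The 3′ to 5′ signal ratios of actin overlapped between days (1.14 to 1.42 and 1.19 to 1.47).

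Fabp5 rose from day 1 to day 2, and it was the 1 gene that passed the test. It was read from 1 probe set, with no other of that symbol to set beside it. Its normalised signal was 1153, 1671 and 950.3 in day 1 replicates 1 to 3, and 4144, 3326 and 4731 in day 2 replicates 1 to 3. Every day 2 pup lay above every day 1 pup, and the lowest day 2 signal was well clear of the highest day 1 signal. The means were 1258 ± 372 and 4067 ± 706 (SD, n = 3 each), a 3.27-fold rise (95% confidence interval 2.12 to 5.07; log2 change 1.71, SE 0.31, limma adjusted p = 0.0265). In all, 1 of 3185 genes was called (0.0314%), with 1 higher and 0 lower. At an unadjusted p under 0.05 there were 166 genes (5.21%), 94 higher (2.95%) and 72 lower (2.26%), a share close to the threshold itself.

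The rise of Fabp5 separated the early from the later pups on arrays that the comparison did not use. The 4 unfed newborns had signals of 1199, 798.7, 1681 and 1195, which overlap the range of day 1. The day 3 pups had 4495, 4176 and 4206, and the day 4 pups 3476, 5414 and 4388, all above the highest day 1 value. Breast-fed days 3 and 4 together stood 3.65-fold above the unfed newborns (log2 change 1.87, SE 0.24, limma adjusted p = 2.5e-05), a comparison in which 344 of 3185 genes were called (10.8%; 7.32% higher and 3.49% lower). Without the depleted arrays, 157 genes were called there, 138 of them among the 344, and Fabp5 remained called (1.80, limma adjusted p = 0.00021). From day 2 to day 3 the log2 change was 0.09 (95% interval -0.54 to 0.72) and from unfed to day 1 it was 0.05 (-0.53 to 0.64). Neither step passed the test, and changes up to 0.72 and 0.64 lie within these intervals.

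In pups on formula and hypoxia, the Fabp5 signal was 1459, 1485 and 719.7 on day 1, against 1309, 1459 and 2295 on day 2. These groups overlap, and all 6 signals lie below the lowest breast-fed day 2 signal. The change was 0.49 on the log2 scale (-0.14 to 1.12, adjusted p = 0.836). The difference between the changes in both regimens was 1.22 (0.33 to 2.11, unadjusted p = 0.0094), and it did not pass adjustment over all genes (limma adjusted p = 1). The evidence for Fabp5 rests on few pups. The direction held in 22 of 22 alternative settings, which adds little for a gene picked on these arrays whose groups did not overlap. The call ended when any of 5 of the 6 arrays was left out (adjusted p = 0.0542 to 0.239, with day 1 replicate 2 the exception at 0.0125). It also ended when arrays were scaled to a common median (0.695), and with the accession run as a term (0.0598). Within accession run 1, which drops day 1 replicate 2, the change was 1.93 (adjusted p = 0.02).

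**Figure D1:**
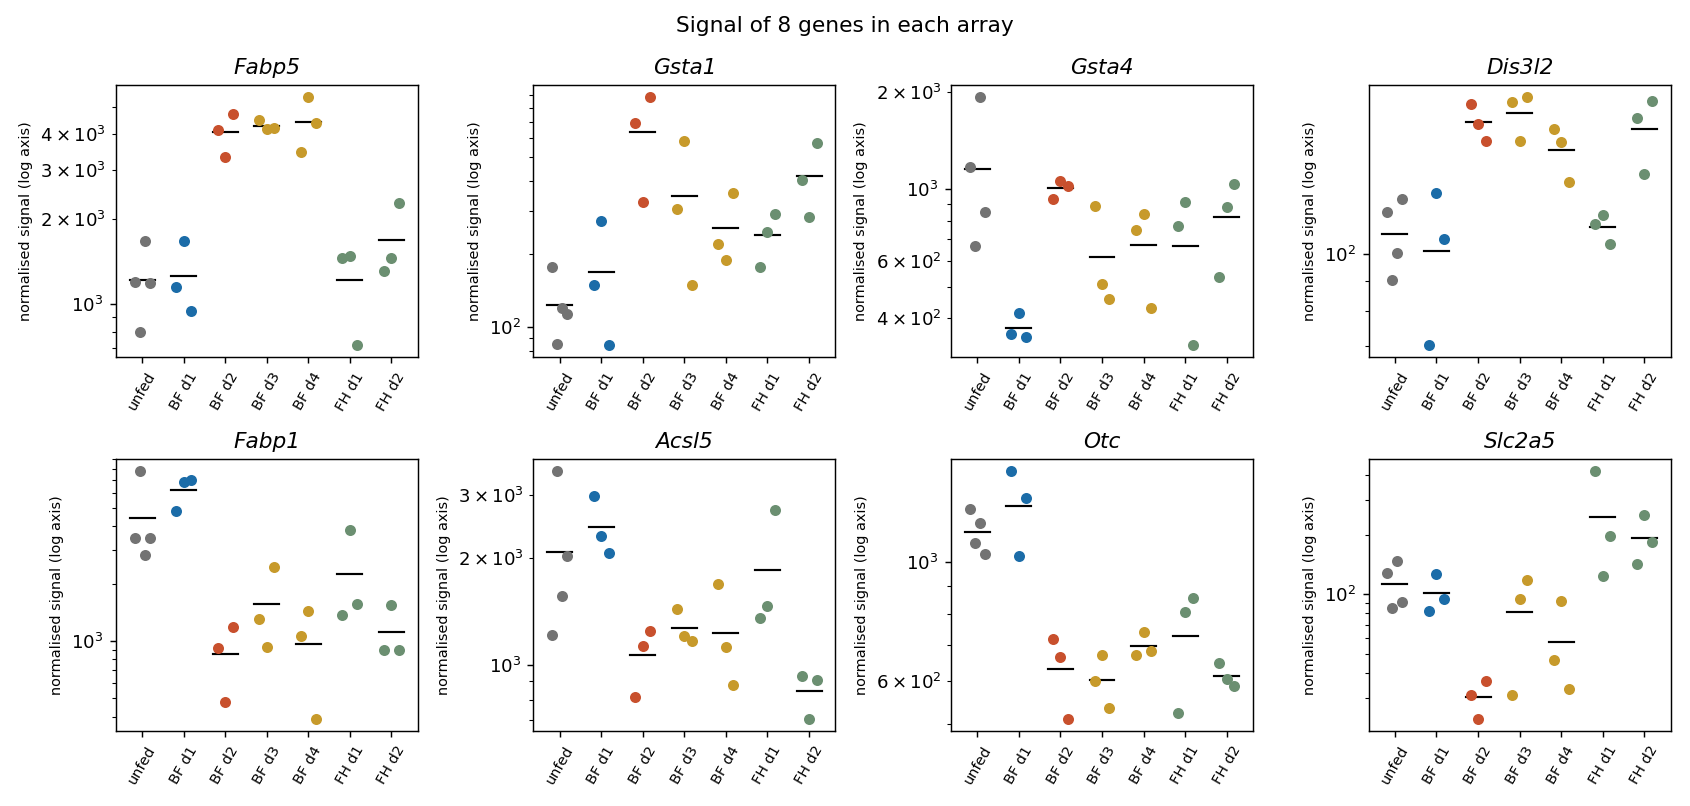
Normalised signal (log axis, arbitrary units) of 8 genes in each array of unfed newborns, breast-fed pups of days 1 to 4 (BF d1 to d4) and pups on formula and hypoxia of days 1 and 2 (FH d1, d2). Points are single pups, placed in replicate order within a group, and bars are group means; for Fabp5 the 3 day 2 points (3326 to 4731) lie above all day 1 points (950.3 to 1671) and near those of days 3 and 4.

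Fabp1, the liver-type fatty acid carrier, had the lowest estimate of all named genes but did not pass the test over all genes. Its signal was 4814, 6827 and 6984 on day 1, against 916.6, 476.8 and 1181 on day 2. The groups are far apart, and every day 2 pup lay below all day 1 pups. The estimate was 7.56-fold lower (95% interval 2.69 to 21.3; log2 change -2.92, SE 0.72, limma adjusted p = 0.487). The fit takes its spread from all groups, and Fabp1 varied within others, for example 1369, 3841 and 1555 in formula and hypoxia day 1 and 3476, 7782, 2818 and 3476 in unfed newborns. When the spread was taken from the 6 arrays alone, Fabp1 passed (adjusted p = 0.000608), and so it did with breast-fed and unfed arrays alone (0.0409) and with array weights (0.0105). In all, Fabp1 was called in 4 of 22 settings. With single arrays left out its limma adjusted p was 0.365 to 0.999.

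Signals of Fabp1 were also low on arrays of later days. They were 1305, 926.2 and 2444 on day 3 and 1059, 1443 and 391.6 on day 4, below every unfed and day 1 pup. Against unfed newborns the mean of days 3 and 4 fell by 1.87 on the log2 scale (limma adjusted p = 0.0349; -2.25 and 0.028 without the depleted arrays). With formula and hypoxia the signals of day 2 (897.5, 1551 and 896.2) were in the range of breast-fed pups, and the change from day 1 was -0.90 (-2.39 to 0.59, adjusted p = 0.894). The difference between regimens was -2.02 (unadjusted p = 0.0599, limma adjusted p = 1), so a difference in the Fabp1 change was not shown.

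Acsl5, Scp2 and Scd2, further genes of lipid handling, were among the 8 with the smallest p in the lower direction, and did not pass either. Acsl5, an acyl-CoA synthetase of enterocytes, had signals of 2975, 2295 and 2059 on day 1, against 812.7, 1131 and 1247 on day 2. The groups did not overlap and the estimate was -1.20 (SE 0.34, adjusted p = 0.598), with -1.46 from its other probe set. Scp2, which encodes sterol carrier protein and a peroxisomal thiolase, had signals of 286.2, 346.3 and 398.6 against 225.7, 138.2 and 188.9. Its estimate was -0.89 (adjusted p = 0.628), and the other probe set gave -1.11. Scd2, a desaturase that makes monounsaturated fatty acids, had signals of 1093, 152.7 and 390.6 against 135.3, 84.3 and 148.9. Here the day 1 pups spread over a wide range and replicate 2 nearly reached the day 2 values. Its estimate was -1.70 (adjusted p = 0.598), was called without that array (-2.38, adjusted p = 0.0125) and was -0.99 without day 1 replicate 1. The other Scd2 probe sets disagreed. Those past the filter on low signals gave -1.36 and 0.10. Those below the filter gave -1.61, -1.61 and 0.02, the last with signals no higher than 10.5.

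On other arrays, 1 of these 3 genes was called. Scd2 fell by 2.30 between unfed newborns and breast-fed days 3 and 4 (limma adjusted p = 0.000239; 0.000642 without the depleted arrays), with unfed signals of 495.4 to 860.8 and later signals of 97.9 to 179.4. Acsl5 had an estimate of -0.64 there (adjusted p = 0.13) and Scp2 one of -0.42 (0.211). The change under formula and hypoxia was -1.05 for Acsl5, -0.60 for Scp2 and -1.0 for Scd2, none of which passed (adjusted p = 0.445, 0.697 and 0.697). The start regions of Fabp1, Acsl5, Scp2 and Scd2 are shown because these are the genes of lipid handling at the lower end of the comparison. Each line holds the 250 bases before the annotated start from RefSeq (GRCr8), read 5′ to 3′ on the gene's strand, with capitals where AGGTCA (a nuclear receptor half-site), TATAAA or CCAAT occurs on either strand. Fabp1 lies at chr4:104749090-104749339 on the plus strand, Acsl5 at chr1:264294601-264294850 (plus), Scp2 at chr5:128110016-128110265 (minus) and Scd2 at chr1:253118127-253118376 (plus).

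Fabp1: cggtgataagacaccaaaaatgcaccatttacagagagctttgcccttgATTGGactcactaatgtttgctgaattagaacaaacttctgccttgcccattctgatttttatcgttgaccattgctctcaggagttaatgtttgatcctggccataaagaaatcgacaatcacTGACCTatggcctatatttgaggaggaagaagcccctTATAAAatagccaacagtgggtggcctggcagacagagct
Acsl5: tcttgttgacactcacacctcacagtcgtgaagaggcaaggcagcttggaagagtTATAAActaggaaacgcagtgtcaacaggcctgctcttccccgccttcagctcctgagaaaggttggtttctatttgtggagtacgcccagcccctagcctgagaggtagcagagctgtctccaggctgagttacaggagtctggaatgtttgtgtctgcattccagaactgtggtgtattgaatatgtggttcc
Scp2: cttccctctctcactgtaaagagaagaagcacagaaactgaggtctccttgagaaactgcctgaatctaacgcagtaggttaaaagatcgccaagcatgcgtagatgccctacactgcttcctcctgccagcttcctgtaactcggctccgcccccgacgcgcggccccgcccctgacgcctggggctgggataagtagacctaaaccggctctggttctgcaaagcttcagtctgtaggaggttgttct
Scd2: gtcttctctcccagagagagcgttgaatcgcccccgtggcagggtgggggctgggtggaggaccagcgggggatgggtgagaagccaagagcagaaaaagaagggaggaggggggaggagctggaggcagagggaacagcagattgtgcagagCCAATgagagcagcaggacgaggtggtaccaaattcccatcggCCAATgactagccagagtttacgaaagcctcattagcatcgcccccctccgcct

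The Fabp1 window held 1 AGGTCA match, 1 TATAAA and 1 CCAAT, the Acsl5 window 1 TATAAA, the Scd2 window 2 CCAAT and the Scp2 window none of the 3 motifs. Of 33469 promoter windows of the same length, 14.1% held AGGTCA, 12.9% TATAAA and 34% CCAAT. A match describes the letters of the window only.

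The list of fat absorption and lipoprotein genes had no called member. Of 19 genes tested 0 were called, 14 had negative and 5 positive estimates, and the median was -0.13 against 0.05 over all genes. Day groups did not overlap in 4, all lower (21.1%, against 4.49% of all genes), and these were Fabp1, Acsl5, Scp2 and Acsl4 (-1.35). Of its apolipoprotein genes, Apoa4 was at 0.03 (95% interval -1.05 to 1.12), Apoa1 at -0.02, Apob at -0.08 and Apoc3 at -0.34, and Dgat1, which makes triglyceride, was at -0.37. Fabp2 had signals of 3974, 5356 and 5568 on day 1 and 4278, 2674 and 2610 on day 2, which overlap, and an estimate of -0.66 (adjusted p = 0.628); it rose by 1.15 from day 2 to day 3 (limma adjusted p = 0.0472), where 3 of 3185 genes were called (0.0942%; 0.0628% higher). Without the depleted arrays this Fabp2 change was 1.04 and not called (limma adjusted p = 0.131), nor was it with the accession run as a term (1.09, 0.106). Enterocyte markers had estimates of the same sign in 7 of 10 genes, with a median of -0.27 and summed signals of 20494 to 25938 on day 1 and 14546 to 16393 on day 2. Both sums include Fabp1 and Fabp2. Among the other members the keratin gene Krt20 was at -0.62 (unadjusted p = 0.036), the cadherin gene Cdh17 at -0.60, lactase, Lct, at -0.34, the peptidase gene Anpep at -0.03 and intestinal alkaline phosphatase, Alpi, at 0.32, the highest of the 10. The part of enterocyte abundance in the fat-handling values was not tested.

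Fatty acid oxidation genes, 30 tested, had a median of -0.13 and 4 members whose groups did not overlap, all lower (13.3%, against 4.49% of all genes). They included the acyl-CoA dehydrogenase genes Acadl (-1.02, unadjusted p = 0.0077) and Acadvl (-0.55). Fatty acid synthesis genes, 6 tested, had a median of 0.06 and the fat-tissue list, which holds Fabp5, a median of -0.01 over 9 genes. In that list the adipocyte carrier gene Fabp4 was at -1.08 and the leptin gene Lep at 0.09 while Fabp5 was at 1.71. Summed signals of the list were 2370 to 3093 on day 1 and 4480 to 5740 on day 2, Fabp5 included. The signs of these lipid medians depended on the scaling. With the deposited scaling, where the median of all genes was 0.26, fat absorption stood at 0.03, fatty acid oxidation at 0.07 and fat tissue at 0.18, and with a common median fatty acid synthesis stood at -0.09. Relative to all genes, fat absorption and fatty acid oxidation stayed lower, by 0.23 and 0.19 with the deposited scaling and by 0.24 and 0.21 with a common median. Counts without overlap moved as well. With the deposited scaling they were 5 higher and 1 lower for fatty acid oxidation (16.7% and 3.33%) and 2 and 3 for fat absorption (10.5% and 15.8%), against 21.2% and 0.973% of all genes. With a common median they were 6 and 3, all lower (20% and 15.8%, against 6.12%).

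A pair of glutathione transferases was among the 8 higher genes with the smallest p. These enzymes conjugate glutathione to electrophiles and lipid peroxidation products. Gsta1 had signals of 148.9, 274.0 and 84.5 on day 1 and 695.6, 328.0 and 884.0 on day 2. No day 2 pup fell into the day 1 range, although replicate 2 of each day came close to the other. The estimate was 3.72-fold higher (1.90 to 7.28; log2 1.90, SE 0.47, adjusted p = 0.487), and both other probe sets gave 1.72 and 2.20. All 3 belong to a class the manufacturer designed for gene families, so close alpha-class paralogs cannot be told apart. Between unfed newborns and days 3 and 4 the Gsta1 change was 1.13 (limma adjusted p = 0.0503), and 1.46 (0.0204) without the depleted arrays.

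Gsta4, which acts on 4-hydroxynonenal, had tight groups, at 357.8, 413.6 and 349.0 on day 1, against 933.8, 1065 and 1026 on day 2. The estimate was 2.67-fold higher (log2 1.42, adjusted p = 0.628) and the other probe set gave 1.62. Unfed newborns, at 670.2 to 1927, were above all day 1 pups, and days 3 and 4 spread from 428.8 to 886.6. The day 1 level was thus the low point among breast-fed and unfed groups, and the unfed to day 1 estimate was -1.50 (adjusted p = 0.285). Nqo1, a quinone reductase singled out after its values were seen, had signals of 73.9, 69.9 and 35.8 against 162.4, 123.9 and 181.0, an estimate of 1.31 (adjusted p = 0.628). In formula and hypoxia the estimate had the same sign, with signals going from 57.5, 79.4 and 106.3 to 284.9, 237.8 and 442.3 (1.88, adjusted p = 0.187).

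In the wider list of oxidative stress defence and drug metabolism, 0 of 53 genes were called. The median was 0.05, equal to that of all genes, and groups did not overlap in 7 higher (13.2%, against 7.5%) and 1 lower gene. Glutathione synthesis genes stayed close to 0, with Gclc at -0.26 and Gclm at 0.03. Hmox1, heme oxygenase, was at -1.39 with signals of 3559, 3559 and 427.2 on day 1 and 1485, 384.8 and 519.0 on day 2, so a pair of day 1 pups set the estimate and the groups overlap. Without day 1 replicate 3 it was -2.40 (adjusted p = 0.239).

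Otc, ornithine transcarbamylase, which makes citrulline in the neonatal gut, was lower in every day 2 pup. Its signal was 1475, 1026 and 1314 on day 1, against 717.2, 665.0 and 511.3 on day 2. The estimate was -1.0 (SE 0.25, adjusted p = 0.487), and the second probe set gave -0.56 with overlapping groups. Later pups had 534.4 to 740.8 and unfed newborns 1036 to 1253, with no overlap, and Otc fell by 0.81 between them (limma adjusted p = 0.012; 0.0393 without the depleted arrays). Formula and hypoxia pups were already at 524.4, 805.2 and 856.9 on day 1. The whole arginine and citrulline list, Otc included, had a median of -0.17 over 22 genes with 0 called, with Cps1, carbamoyl phosphate synthase, at -0.32 and Oat, ornithine aminotransferase, at 0.08.

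Slc2a5, the apical fructose transporter, had low signals of 81.8, 126.8 and 94.2 on day 1, against 30.9, 23.5 and 36.2 on day 2. The estimate was -1.51 (adjusted p = 0.598), with -1.17 from the other probe set. The lower values were not kept in all later pups, since day 3 had 31.0, 94.8 and 118.2 and day 4 had 46.6, 92.1 and 33.3. Formula and hypoxia pups had 123.5 to 419.0 on day 1 and 141.4 to 249.9 on day 2, all above the breast-fed day 2 pups, and the difference between regimens was -1.29 (unadjusted p = 0.0417, limma adjusted p = 1).

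**Figure D2:**
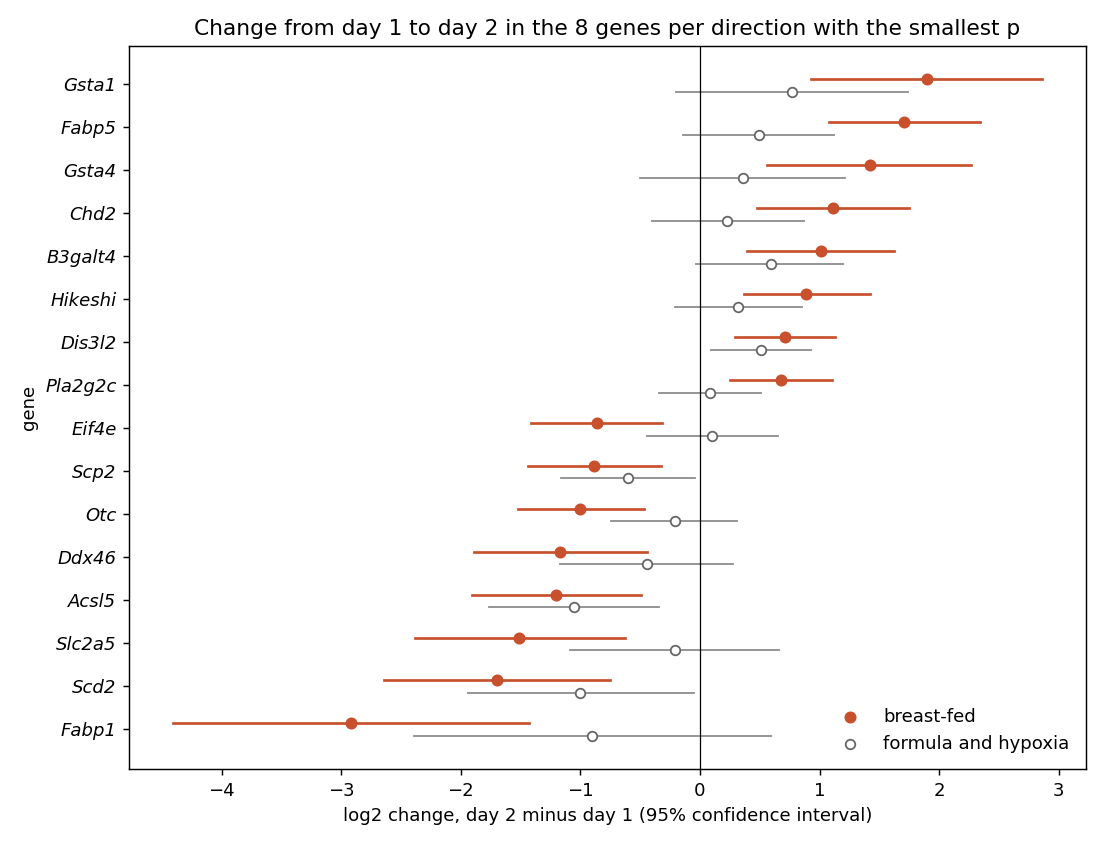
Log2 change from day 1 to day 2 (x axis) with 95% confidence intervals for the 8 genes with the smallest p in each direction, in breast-fed pups (filled) and in pups on formula and hypoxia (open). Fabp5, at 1.71 in breast-fed pups, is the 1 gene called, and the wide interval of Fabp1 runs to a 21.3-fold lower level.

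The other genes named for their small p had estimates of 0.68 to 1.17 in size and none passed. On the higher side, Dis3l2, an exoribonuclease, had 70.3, 126.7 and 105.7 on day 1 and 178.6, 165.5 and 154.7 on day 2 (0.71, adjusted p = 0.598). It rose by 0.55 from unfed newborns to days 3 and 4 (limma adjusted p = 0.0278), was not called there without the depleted arrays (0.51, 0.107), and was at 0.51 under formula and hypoxia. The chromatin remodeller gene Chd2 was at 1.11, Hikeshi, a nuclear import carrier of Hsp70, at 0.89, the galactosyltransferase gene B3galt4 at 1.01 (0.61 by its other probe set) and Pla2g2c, a secreted phospholipase A2, at 0.68. On the lower side, the RNA helicase gene Ddx46 was at -1.17 but at -0.28 by its other probe set, and the cap-binding factor gene Eif4e was at -0.86. For all 16 genes of both directions the day groups did not overlap, as they did not for 382 of 3185 genes (12%). Each kept its direction in every alternative in which it was measured. That was largely set in advance, since the genes were picked for a small p on these arrays. Of the 16, Fabp5, Dis3l2, Fabp1, Otc and Scd2 were called with the same sign between unfed newborns and days 3 and 4. Without the depleted arrays Dis3l2 was not, and Gsta1 was. Over all genes, 344 of 3185 were called there (10.8%), and 157 without the depleted arrays. Both comparisons share 1 estimate of the spread per gene, and genes picked for a small p tend to have a small spread.

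Precision was limited by 3 pups a day. The median SE was 0.32 on the log2 scale and the median change 0.05, with quartiles of -0.18 and 0.26. For 1877 genes (58.9%) the 95% interval lay within 2-fold either way, so changes beyond 2-fold were outside the interval of those genes, while for the rest they were not. Point estimates beyond 2-fold were found in 51 genes, 17 higher and 34 lower. An exact two-sided permutation test of 3 against 3 arrays cannot give a p below 0.1. With 1 test per probe set, 1 of 5244 probe sets was called by limma, again Fabp5, and 0 of the 914 probe sets without a single symbol.

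The day 1 to day 2 changes were then set beside those in pups on formula and hypoxia, which share no array with them. There 0 of 3185 genes were called by limma (0%; 212 at an unadjusted p under 0.05, 6.66%), and the difference between regimens was called for 0 genes (92 at an unadjusted p under 0.05, 2.89%). Of the 166 breast-fed genes with an unadjusted p under 0.05, 131 had the same sign under formula and hypoxia (78.9%, against 60% of all genes), 76 of 94 higher and 55 of 72 lower. The correlation between the changes was 0.27 across 3185 genes, which are not independent. Both comparisons share the normalisation and deposited median signals that tended to be higher on day 2, with overlapping ranges. Under formula and hypoxia these medians were 33.0 to 40.4 on day 1 and 40.2 to 43.4 on day 2. The part of the normalisation and of the medians in the shared sign was not tested. The 4 genes with the smallest p for a difference were Rfk, riboflavin kinase (-1.41, unadjusted p = 0.00104), the prostaglandin-degrading enzyme gene Hpgd (-1.38), Phf7 (-1.44) and Cbx5, heterochromatin protein (-1.53), each with an adjusted p of 1. In all 4 the formula and hypoxia estimate was positive (0.77 to 1.25) and the breast-fed one negative (-0.66 to -0.28). For Hpgd, breast-fed signals were 113.6 to 174.0 on day 1 and 66.3 to 123.1 on day 2, and formula and hypoxia signals 91.9 to 148.2 and 168.6 to 345.7.

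**Figure D3:**
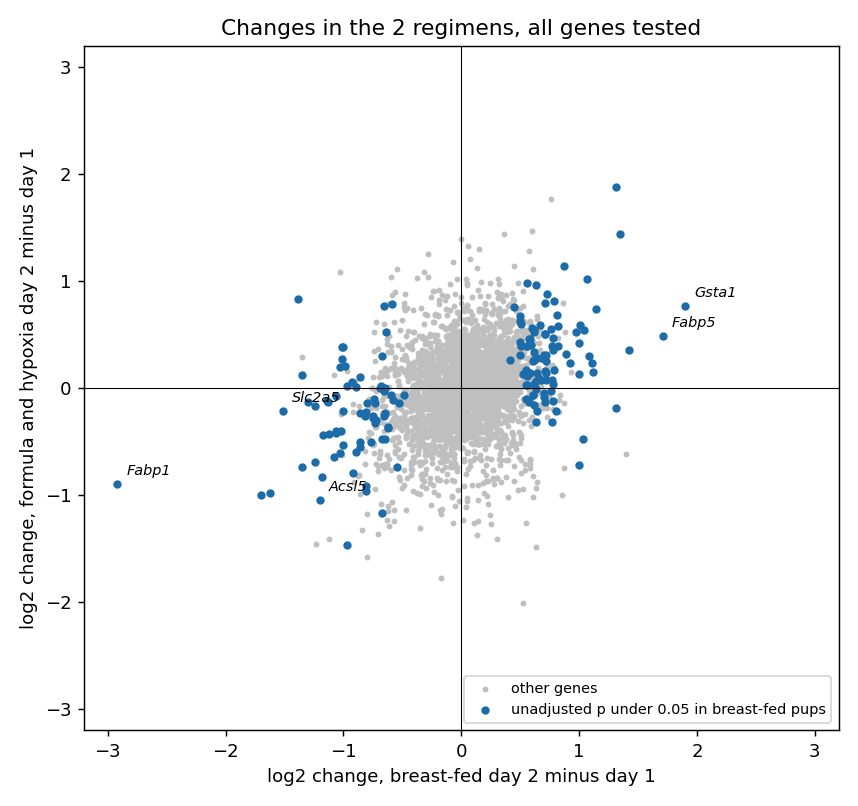
Log2 change from day 1 to day 2 in breast-fed pups (x axis) and in pups on formula and hypoxia (y axis) for 3185 genes. Blue points are the 166 genes with an unadjusted p under 0.05 in breast-fed pups, of which 131 share their sign on both axes.

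The same 166 genes were read on unfed newborns and breast-fed pups of days 3 and 4. In that comparison 108 kept their sign (65.1%, against 53.6% of all genes), 65 of 94 higher and 43 of 72 lower. The correlation across genes was 0.19. Of the 166, 29 were called (17.5%, against 10.8% of all genes), 27 of them with the sign of the day 1 to day 2 estimate. Without the depleted arrays, 113 kept their sign (68.1%, against 54.8% of all genes). In that fit 18 of the 166 were called, all 18 with that sign, against 157 of all 3185 genes. The day 1 to day 2 comparison and this one share 1 estimate of the spread per gene. Genes picked for a small p in the first tend to have a small spread, and such genes are called more readily in both. The part of the shared spread in the share called was not tested. From unfed newborns to day 1, limma called 0 genes (187 at an unadjusted p under 0.05, 5.87%).

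The cell type and pathway lists covered 39 groups, and 1 of them, fat tissue with Fabp5, held a called gene. Red cell markers had the lowest median, -0.53 over 9 genes, with 5 genes whose groups did not overlap, all lower (55.6%, against 4.49% of all genes). The beta globin gene Hbb had signals of 8361, 9250 and 7990 on day 1 and 6984, 5117 and 5768 on day 2 (-0.53, adjusted p = 0.628), and Hbb-b1 had 6418, 6331 and 4971 against 4347, 3515 and 3925 (-0.58, adjusted p = 0.731). Both come from probe sets of the family class and cannot be read as separate genes. Summed signals of the list were 14075 to 16584 on day 1 and 9398 to 12301 on day 2. With the deposited scaling the list median was -0.17, 0.43 below that of all genes, and groups did not overlap in 1 higher and 1 lower gene (11.1% each, against 21.2% and 0.973% of all genes). With a common median it was -0.49, with 4 lower genes (44.4%, against 6.12%). The amount of blood left in the tissue was not tested as a part of these values. Hbb fell by 0.58 and Hbb-b1 by 0.79 between unfed newborns and days 3 and 4 (limma adjusted p = 0.00824 and 0.00386; 0.0141 and 0.019 without the depleted arrays).

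Fibroblast and matrix genes had a median of 0.27 over 38 genes, 29 of them positive. It was the highest of all lists with quantile normalisation, but endothelium and exocrine pancreas markers were higher with the deposited scaling (0.54 and 0.50 against 0.45) and, with neurons and glia, with a common median (0.24, 0.24 and 0.15 against 0.12). In 6 the day groups did not overlap, all higher (15.8%, against 7.5%), among them the matrix glycoprotein gene Tnc (0.92), the collagen gene Col1a2 (0.78) and the collagen chaperone gene Serpinh1 (0.63). Members with the highest signals were uneven, with Col1a1 at 0.09, Sparc at -0.11 and Dcn at 0.43. Neuron and glia genes had a median of 0.17 over 22 genes, with 17 positive and 5 negative estimates, the lowest at -0.71. In 5 the day groups did not overlap, all higher (22.7%, against 7.5% of all genes). They included the neuropeptide genes Npy (0.70), Gal (0.57) and Vip (0.37). The surface antigen gene Thy1, shared with other cell types, was at 0.70 with signals of 57.7, 114.8 and 87.9 against 134.0, 179.4 and 116.1, and it rose by 1.04 from unfed newborns to days 3 and 4 (limma adjusted p = 0.0104; 0.0477 without the depleted arrays). Relative to all genes the fibroblast median stayed above by 0.17 to 0.23 and the neuron median by 0.12 to 0.20 under the 3 scalings. Under formula and hypoxia the medians of both lists were -0.05.

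Endocytosis, Fc receptor and lysosome genes, which serve the uptake of milk proteins, had a median of -0.02 over 32 genes. Day groups did not overlap in 4, all higher (12.5%, against 7.5% of all genes). With the deposited scaling there were 3, all higher (9.38%, against 21.2%). The neonatal Fc receptor gene Fcgrt, which carries milk antibodies across the epithelium, was at 0.09, and the lysosomal protease gene Ctsl at 0.12. Of partners in protein uptake, the receptor gene Cubn was at 1.12 (unadjusted p = 0.0159) and the adaptor gene Dab2 at 1.08 (0.0317), and neither was called. In both the day groups did not overlap, and the related receptor gene Lrp2 was at -0.34. Brush border genes had a median of -0.10 over 21, with lactase, Lct, at -0.34. Bile acid genes had a median of -0.17 over 9, and 3 did not overlap, all lower (33.3%, against 4.49% of all genes): Cyp27a1 (-0.97), the bile acid receptor gene Nr1h4 (-0.72) and Abcc3 (-0.52). With the deposited scaling the bile acid median was 0.12. There 2 higher genes and 1 lower gene did not overlap (22.2% and 11.1%, against 21.2% and 0.973% of all genes). With a common median 2 did not overlap, both lower (22.2%, against 6.12%). Relative to all genes the bile acid median was -0.22 with quantile normalisation, -0.14 with the deposited scaling and -0.11 with a common median. Oxidative phosphorylation genes had 30 of 39 negative estimates and a median of -0.14 (-0.03 with the deposited scaling). Relative to all genes this was -0.19 with quantile normalisation, -0.29 with the deposited scaling and -0.32 with a common median. Ribosomal protein genes had a median of -0.01 over 40.

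Secretory and immune lists held no called gene. Muc2, the gel-forming goblet cell mucin, had signals of 765.3, 1044 and 323.6 on day 1 and 1121, 1170 and 1127 on day 2 (0.83, adjusted p = 0.996). Day 1 pups thus stood between the unfed newborns, at 73.1 to 258.2, and the day 2 pups, and by this probe set Muc2 rose by 2.80 from unfed newborns to days 3 and 4 (limma adjusted p = 7.22e-05; 0.000474 without the depleted arrays). Inflammatory mediators had a median of -0.04 over 32 genes, immediate early genes -0.03 over 36, antimicrobial genes 0.01 over 17 and interferon response genes -0.04 over 25. Cell cycle genes had a median of 0.07 over 30 genes and 4 higher and 1 lower that did not overlap (13.3% and 3.33%, against 7.5% and 4.49% of all genes). With the deposited scaling 7 were higher (23.3%, against 21.2%) and 0 lower. With a common median 1 was higher (3.33%, against 4.68%) and 0 lower. The T cell kinase gene Lck was at 0.71 with signals of 89.1 to 142.8 and 190.1 to 199.0 (adjusted p = 0.628), while lymphocyte markers as a list were at -0.08 over 11.

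**Figure D4:**
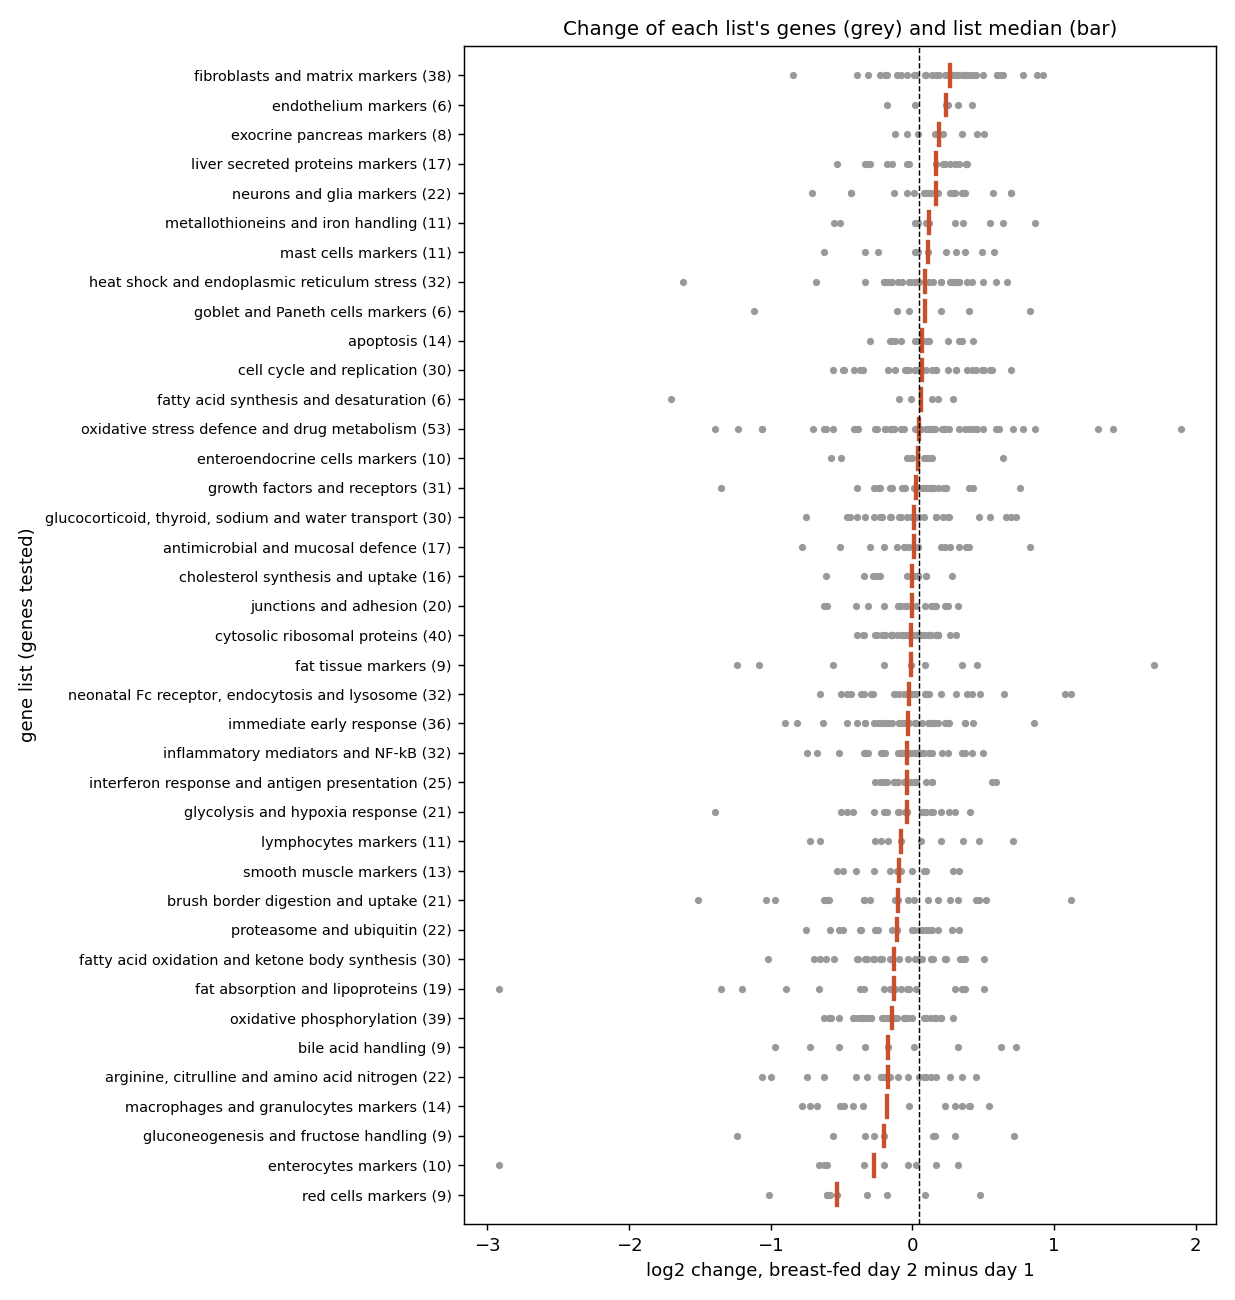
Log2 change from breast-fed day 1 to day 2 (x axis) for each gene of 39 lists (grey points) with the list median (bar) and the median of all genes, 0.05 (dashed line); numbers beside the names count the genes tested. Red cell markers have the lowest median (-0.53) and fibroblast and matrix markers the highest (0.27); with the other scalings endothelium and exocrine pancreas markers exceed the latter.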

How the data were processed

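RNA of the terminal ileum was measured on 1 Affymetrix array per pup. The authors deposited linear probe set intensities, 1 per probe set and array; the sources used here name no software, background correction or summary method. From the values, arrays had been scaled to a common trimmed mean, with exceptions in breast-fed day 1 replicate 2 (109.2) and breast-fed day 4 replicate 1 (209.2). Of 8799 probe sets, 59 controls were left out; 7006 of the rest had 1 gene symbol. Intensities were quantile normalised over 28 arrays, a pseudocount of 8 was added, log2 was taken, and probe sets with a mean above the 40th percentile (signal 24) were kept (5244). The probe set with the highest mean stood for a gene (3185 genes). Fold changes are on the log2(value + 8) scale and understate changes of dim genes.

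A model with 1 mean per group (9 groups, 19 residual degrees of freedom) was fitted with limma 3.58.1 in R 4.3.3, with an intensity trend, two-sided tests and Benjamini-Hochberg adjustment over all genes, called at 0.05. The code was tested on simulated data. The comparison, the gene lists and the tests were chosen with earlier results of these data known. Named genes were those called, then those with the smallest p up to 8 per direction; of each list the called members or the 3 with the highest signal; the 4 with the smallest p for the difference between regimens; tissue markers (Fabp1, Fabp2, Vil1, Slc10a2, Fabp6); and other probe sets of the first group. Other list members are named because their day groups did not overlap or because of their role, and were chosen after their values were seen. Lists are described by counts and medians, without a test. Replicate numbers did not pair the arrays: correlations of deviations from the day means were -0.24, -0.10 and 0.17. The number of arrays limits the precision. Alternatives changed the scaling, pseudocount, filter, probe set rule, arrays, weights, moderation, accession run and pairing. For comparisons with days 3 and 4, fits without breast-fed day 3 replicate 3 and day 4 replicate 2 and with the accession run as a term were chosen after seeing the data.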

Additional observations from a re-analysis of the deposited data

How the results depend on the processing

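The count of genes called for breast-fed day 2 against day 1, 1 with all settings as given, moved to 0 with arrays scaled to a common median and with the accession run as a term, to 2 with breast-fed and unfed arrays alone (Fabp1 and Fabp5), and to 3 with the 6 arrays alone (Fabp1, Fabp5 and Gsta4) and with array weights (Fabp1, Fabp5 and Gsta1). With single arrays left out it ran from 0 to 2, with Fabp5 and Scd2 called without day 1 replicate 2 and 0 called without any other. The replicate block, fitted over the 6 arrays, gave 2 calls (Fabp1 and Fabp5), but replicate numbers did not pair the arrays, and replicates 1 and 2 of each day correlated best with the other number. In the other 10 settings 1 gene was called, Fabp5. Fabp5 was called in 15 of 22 settings, with a log2 change of 1.49 to 1.93. All 16 genes of smallest p kept their direction in 351 of 351 gene-by-setting values. They were picked on the same arrays and their day groups did not overlap, so this was largely set in advance. The difference between regimens was called for 0 genes in every setting run. The split of genes at an unadjusted p under 0.05 depended on the scaling: 94 higher and 72 lower as reported, 283 and 19 with the deposited scaling and 55 and 98 with a common median, where the median change of all genes was 0.26 and -0.05 in place of 0.05. The count for days 3 and 4 against unfed newborns moved from 344 to 157 without breast-fed day 3 replicate 3 and day 4 replicate 2, which leaves fewer samples, and was 384 with the accession run as a term. That for day 3 against day 2 moved from 3 to 1 and to 0 (limma; 448 genes at an unadjusted p under 0.05). The cause of these shifts was not tested. In the unfed newborns, the group of 4 arrays, 0 of the 16 genes had a pup far from the others.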
